A study of Mus musculus with 6 samples.

Results

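The transcription factor *Myc* and 40 factors that build ribosomes were followed in organoids grown from the esophagus and the stomach of the same mice. The 41 genes were given as a list of names, and all 41 were found on the arrays. They were measured by 59 of 55681 non-control probes, and they are 41 of 34298 gene names on the array. Each gene was read from its brightest probe by mean over all 6 arrays, and all 41 of these probes stood well above background on the 6 arrays. The 41 brightest probes lie on 17 chromosomes, and 28 of the genes have a single probe.

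Organoids are small epithelial structures that grow from tissue stem cells in a gel. The 6 arrays hold RNA from esophageal (squamous) organoids of mice 1, 2 and 4 and from stomach (columnar) organoids of the same 3 mice, all at passage 0 and labelled as controls. The labels give neither strain, genotype nor age. The methods of the study name wild-type C57BL/6 females as well as reporter strains, without saying which gave the organoids on the arrays. The harvest was on day 8 for 5 samples and on day 7 for the stomach organoids of mouse 4. Esophageal organoids started from dissociated cells and stomach organoids from glands of the corpus. Both media held B27, N2, EGF, noggin, FGF-10, N-acetylcysteine, nicotinamide, a TGF-β receptor kinase inhibitor and a ROCK inhibitor. The stomach medium also held WNT3A and R-spondin1 conditioned media and gastrin, and the esophageal medium held forskolin. Tissue, starting material, medium and, for mouse 4, harvest day changed together, so their effects cannot be told apart.

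A ribosome is assembled in the nucleolus from a long precursor RNA that RNA polymerase I makes. Small nucleolar ribonucleoproteins (snoRNPs) of the box C/D class guide methylation of that RNA, and those of the box H/ACA class guide pseudouridylation. A large processome then cuts out the small subunit RNA, while a separate chain of helicases, GTPases and scaffold proteins assembles the large subunit. MYC binds DNA with its partner MAX, most strongly at the E-box CACGTG, and many genes of ribosome assembly are among its known targets. In stratified epithelia such as that of the esophagus, *Myc* is known for its part in the dividing basal layer, and in glandular epithelia it is known as a target of WNT signaling.

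Since many of these genes are known MYC targets, their promoters were searched for the E-box, and the matches are shown here so that the letters MYC is known to prefer can be seen in the genes that hold them. The RefSeq promoter table of mouse build GRCm38.p6 runs from 250 bases before to 50 bases after each start, and it held 34 of the 41 genes. *Bop1*, *Fbl*, *Gnl2*, *Myc*, *Npm1*, *Rrp12* and *Rrs1* were missing from it. The letters CACGTG, which read the same on both strands, stood in 8 of the 34, or 23.5%, against 8.09% of 27025 genes with a promoter in the table. They are printed 5′ to 3′ on the strand of the gene, as windows of 30 bases from GRCm38.p6 with the E-box in capitals. The windows are chr6:125131811-125131840 (plus strand) for *Nop2*, chr1:34439696-34439725 (plus) for *Imp4*, chr17:71616220-71616249 (plus) for *Wdr43*, chr11:3963965-3963994 (plus) for *Pes1*, chr11:74898092-74898121 (plus) for *Tsr1*, chr11:17211540-17211569 (minus) for *Pno1*, chr10:13193092-13193121 (minus) for *Ltv1* and chr10:88826765-88826794 (minus) for *Utp20*.
Nop2: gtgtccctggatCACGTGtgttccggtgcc
Imp4: acggtcttagacCACGTGacatcccaaatc
Wdr43: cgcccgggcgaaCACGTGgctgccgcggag
Pes1: ccctaggcagggCACGTGcgggaggaagta
Tsr1: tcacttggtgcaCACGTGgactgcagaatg
Pno1: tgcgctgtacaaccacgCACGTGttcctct
Ltv1: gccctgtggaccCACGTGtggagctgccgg
Utp20: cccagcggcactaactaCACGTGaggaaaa

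The first base of the E-box lay at -60 in *Nop2* and -121 in *Imp4*, counted back from the base before the start. In the other 6 genes it lay within the first 38 bases after the start. A match is a description of the letters and not a measured binding site, and a promoter without a match says only that these letters are not in that window. The 250 bases before the start of *Nop2* (chr6:125131633-125131882, plus strand) are given whole because this gene was among those higher in the esophagus and its E-box lies upstream of the start.
Nop2 upstream: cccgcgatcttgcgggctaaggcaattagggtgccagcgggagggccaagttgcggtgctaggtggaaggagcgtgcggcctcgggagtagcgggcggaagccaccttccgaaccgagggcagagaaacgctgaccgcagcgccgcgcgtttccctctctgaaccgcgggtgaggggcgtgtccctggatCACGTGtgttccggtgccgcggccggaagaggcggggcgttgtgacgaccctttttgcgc

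Each array had 62976 spots, of which 59305 were not controls. Between 45.5% and 51.1% of these were well above background, and no spot was saturated. All 12 columnar markers were higher in stomach organoids and 8 of 9 squamous markers in esophageal organoids, as their labels say. The ninth, *Trp63*, was lower in esophageal organoids by a log2 difference of -1.22 at its brightest probe, while its 3 other probes read between 10.24 and 13.46 in the esophagus and between 4.15 and 4.89 in the stomach. Of 10 fibroblast and smooth muscle markers, 0 to 2 were above background on an array, with summed intensities of 282 to 392 in the esophagus and 307 to 321 in the stomach. Of 6 immune markers, *Itgam* was higher in stomach organoids (-2.62), *Ptprc* and *Adgre1* never rose above background, and *Cd68* read 14.77, 12.94 and 11.80 in the esophagus of mice 1, 2 and 4 against 11.04, 11.22 and 12.36 in the stomach (difference 1.63, adjusted p 0.211 in limma). The summed intensities of the 6 were 5320 to 30600 in the esophagus and 12000 to 17300 in the stomach. None of 4 endothelial markers passed, with sums of 458 to 664 and 517 to 551. The array of esophageal organoids of mouse 4 was the only one on the second slide, so slide and sample cannot be told apart for it. The part of other cell types in the differences was not tested.

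In the comparison of the tissues, 20 of the 41 genes passed as higher in the esophagus and 0 as higher in the stomach (limma, Benjamini-Hochberg adjusted p under 0.05 over all 55681 probes). As a background, 18489 gene names had a brightest probe above background throughout a tissue, and of these 12.8% were called for the esophagus and 13.9% for the stomach. Over all probes these shares were 5.94% and 6.22%. The background genes were not matched to the 41 by level. Their median level was 9.28 to 9.31 on the arrays, against 11.15 to 12.13 for the 41 genes, and 15649 of the 18489 were well above background on all 6 arrays. At an unadjusted p under 0.05, 4380 of the 18489 background genes passed for the esophagus and 3973 for the stomach. Of the 41 genes, 30 passed at that threshold as higher in the esophagus and 0 as higher in the stomach. The difference was positive in 39 genes and negative in *Ddx56* and *Rrp1b*. Its median was 0.71 on the log2 scale, with a lower quartile of 0.46, against a median of 0.06 over those 18489 genes. All 3 esophagus arrays lay above all 3 stomach arrays in 31 genes, and the reverse held in *Ddx56* alone. Such a separation was seen in 24.3% of the background genes with the esophagus above and in 21.3% with the stomach above. In RNA of whole organoids, fewer cells of a type and less RNA per cell cannot be told apart.

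**Figure D1:**
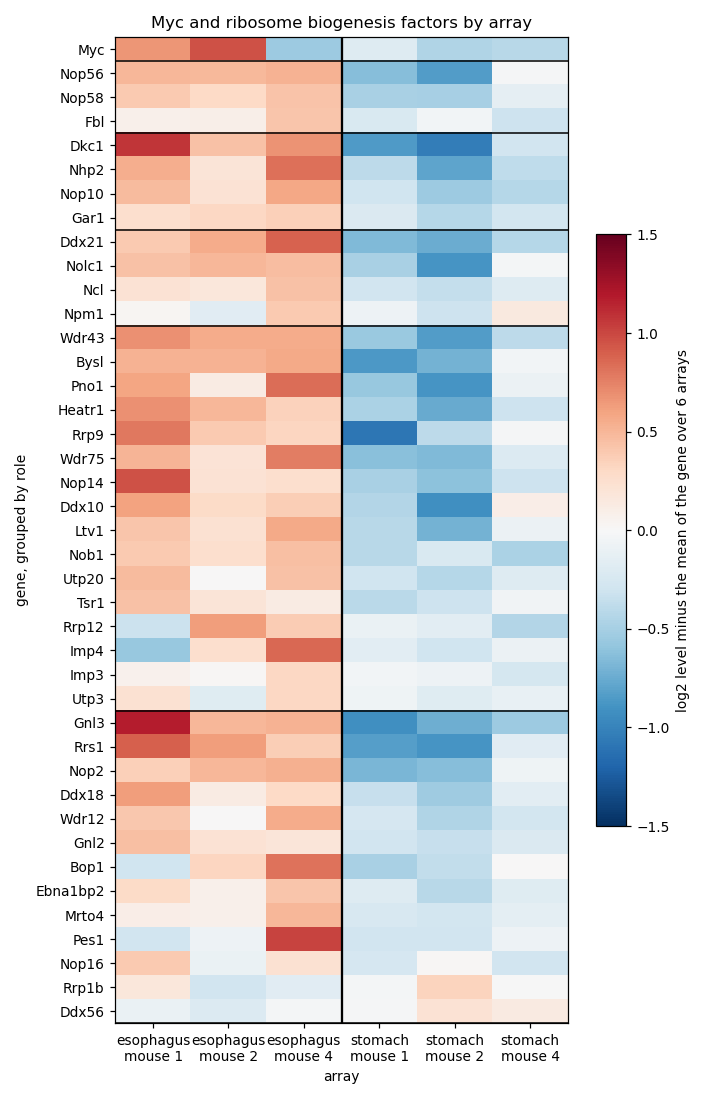
Heat map of the 41 genes (rows, grouped by role and sorted by difference) on the 6 arrays (columns). Color is the log2 level minus the mean of that gene over the 6 arrays. Most rows are red on the 3 esophagus arrays and blue on the stomach arrays, while the top row, *Myc*, is blue on the esophagus array of mouse 4.

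The direction was shared by the 3 mice. Within mouse 1 the median difference between esophagus and stomach was 0.84, and 37 of the 41 genes were positive. Within mouse 2 it was 0.77 with 37 positive genes, and within mouse 4 it was 0.62 with 38. The count of 20 rested on 3 arrays a group and moved when arrays were left out. It fell to 6 without the stomach array of mouse 1 and to 6 without that of mouse 2, to 13 without the esophagus array of mouse 1 or of mouse 4, and stood at 22 without the stomach array of mouse 4. *Dkc1*, *Ddx21*, *Wdr43*, *Heatr1* and *Gnl3* passed under all 17 alternatives, which changed the processing, the model, the threshold or the arrays used. The other 15 lost the call when at least 1 array was left out. The sign of the difference was kept by all 41 genes under all 17, but several of these change only the test or the threshold. Under those the difference, and so its sign, could not change.

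*Myc* itself did not pass the test. Its probe (mm9, chr15:61821417-61821476) read 12.29, 12.58 and 11.08 in the esophagus of mice 1, 2 and 4 and 11.43, 11.17 and 11.21 in the stomach. The esophagus arrays of mice 1 and 2 were the highest of the 6, and that of mouse 4 was the lowest, below every stomach array. Esophageal organoids had a mean of 11.98 ± 0.79 and stomach organoids one of 11.27 ± 0.14 (SD, n = 3 each). The difference was 0.71 (95% confidence interval -0.12 to 1.55), a 1.64-fold ratio, with an adjusted p of 0.288 in limma. Without the esophagus array of mouse 4, the only one on its slide, the difference was 1.16 and passed with an adjusted p of 0.00681. On that array the median over the other 40 genes of the level minus the mean of the gene stood at 0.44, against 0.41 and 0.22 on the esophagus arrays of mice 1 and 2. Single genes differed from this median, and *Rrs1* and *Heatr1*, for example, had their lowest esophagus value in mouse 4, as *Myc* did.

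**Figure D2:**
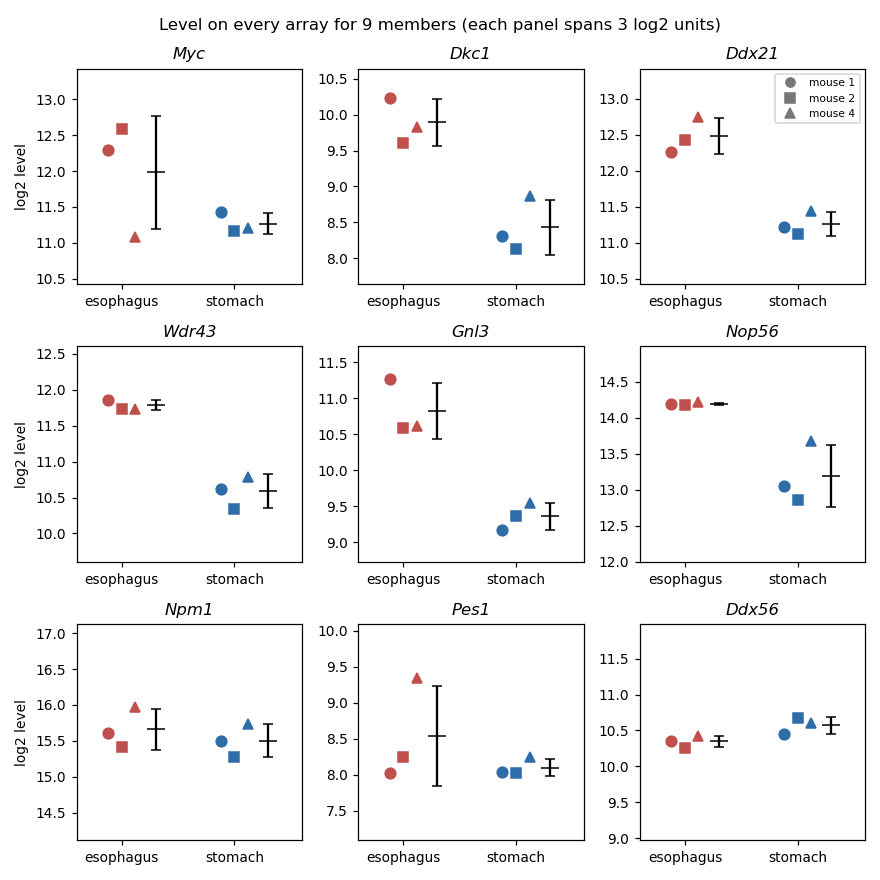
Log2 level of 9 genes on every array (circle, mouse 1; square, mouse 2; triangle, mouse 4), with the mean ± SD of the 3 arrays of a tissue in black. *Dkc1*, *Ddx21*, *Wdr43*, *Gnl3* and *Nop56* separate the tissues on all arrays, whereas *Myc*, *Npm1* and *Pes1* overlap and *Ddx56* lies slightly higher in the stomach.

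RNA of all 4 genes for the core of the box H/ACA snoRNP was higher in the esophagus. *Dkc1*, the pseudouridine synthase (probe at mm9, chrX:72354473-72354532, plus strand), read 10.23, 9.60 and 9.83 in the esophagus of mice 1, 2 and 4 and 8.31, 8.13 and 8.87 in the stomach. Every esophagus array lay above every stomach array, and the stomach organoids of mouse 4 came closest. The difference was 1.45 ± 0.25 (SE), or 2.74-fold, with an adjusted p of 0.00704. *Nhp2*, which binds the guide RNA, read 15.32, 14.97 and 15.60 against 14.38, 13.98 and 14.39, a difference of 1.04 with an adjusted p of 0.0153. *Nop10*, which bridges the synthase and *Nhp2*, read 13.39, 13.14 and 13.50 against 12.62, 12.37 and 12.49, a difference of 0.85 with an adjusted p of 0.0117. The 2 tissues again did not overlap. *Gar1*, which helps release the modified RNA, read 13.82, 13.88 and 13.93 against 13.36, 13.15 and 13.30. It had the narrowest gap of this group, 0.61, with an adjusted p of 0.0272 that became 0.0719 with the mouse as a block.

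Of the 3 genes for box C/D snoRNP proteins, those for both scaffold proteins were higher in the esophagus and that for the methyltransferase did not pass. *Nop56* read 14.19, 14.18 and 14.22 in the esophagus and 13.05, 12.85 and 13.67 in the stomach. The esophagus arrays were nearly level (SD 0.02), and the stomach array of mouse 4 stood above the other stomach arrays (SD 0.43). The difference was 1.0 (adjusted p 0.0237). Another probe of the gene gave 0.97 (adjusted p 0.0102) and the last gave 0.80, which did not pass (adjusted p 0.0703). *Nop58* read 13.23, 13.13 and 13.27 against 12.35, 12.34 and 12.70, without overlap, for a difference of 0.74 (adjusted p 0.0203). Fibrillarin, *Fbl*, which places the methyl groups, read 12.82, 12.83 and 13.16 against 12.52, 12.70 and 12.43. Its arrays did not overlap either, but the difference of 0.39 (95% confidence interval 0.00 to 0.77) had an adjusted p of 0.204.

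Among the nucleolar chaperones and helicases, the DEAD-box helicase *Ddx21*, which couples RNA polymerase I transcription to processing (probe at mm9, chr10:62044862-62044921, minus strand), read 12.26, 12.43 and 12.75 in the esophagus and 11.21, 11.12 and 11.44 in the stomach. All esophagus arrays were higher than all stomach arrays, and the difference was 1.22 ± 0.18 (SE, adjusted p 0.00358), with 0.90 at the second probe (adjusted p 0.0262). *Nolc1*, a snoRNP chaperone, read 13.10, 13.16 and 13.13 against 12.18, 11.78 and 12.63, a difference of 0.94 (adjusted p 0.0307). Its second probe gave 0.79 and passed narrowly, with an adjusted p that rounds to 0.05. Nucleolin, *Ncl*, lay at the threshold. It read 14.48, 14.43 and 14.70 against 13.97, 13.90 and 14.07, without overlap, and its difference of 0.55 had an adjusted p of 0.0501, while its other probe passed with 0.62 (adjusted p 0.0366). Nucleophosmin, *Npm1*, an abundant chaperone of the nucleolus, read 15.61, 15.41 and 15.97 against 15.50, 15.27 and 15.73. These values overlapped, the difference was 0.16 (95% confidence interval -0.30 to 0.63, adjusted p 0.708), and the 4 further probes gave 0.00 to 0.55, of which none passed.

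**Figure D3:**
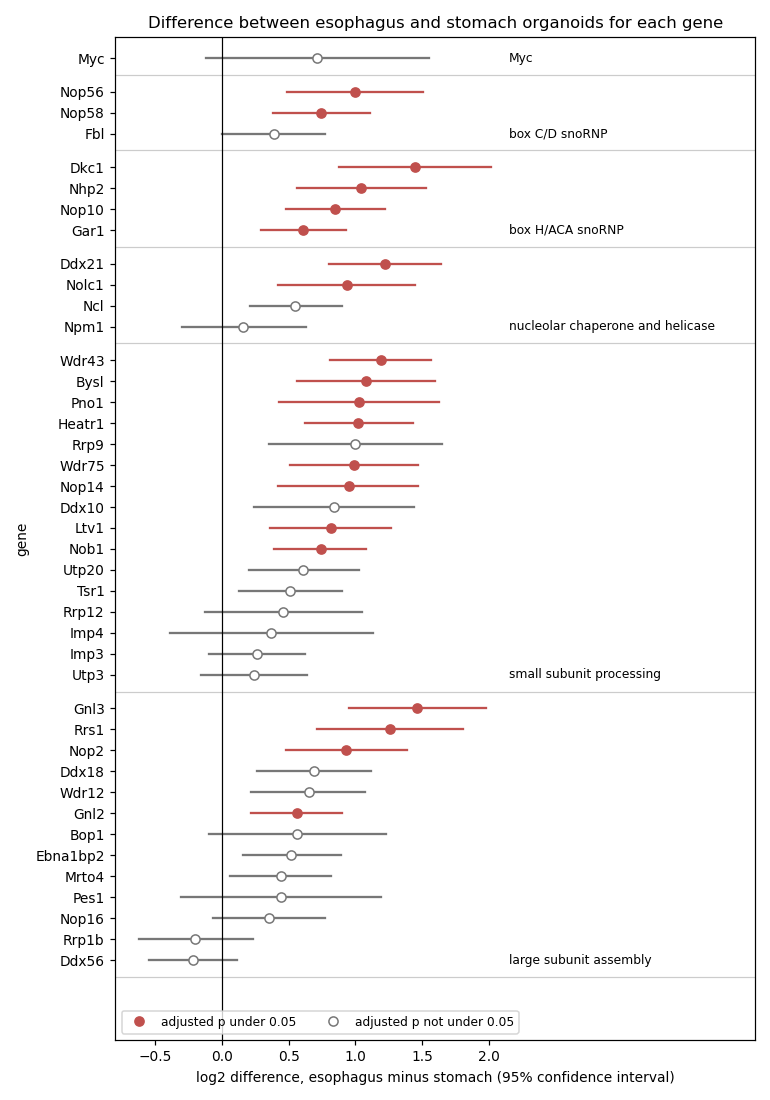
Log2 difference, esophagus minus stomach, for each of the 41 genes by role, with 95% confidence intervals from limma. Filled red points have an adjusted p under 0.05. These are 20 genes, all to the right of 0, and the 2 points left of 0, *Ddx56* and *Rrp1b*, have intervals that include 0.

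Small subunit processing was represented by 16 genes, of which 8 passed as higher in the esophagus, and all 16 differences were positive. The subcomplex that joins the precursor RNA first was measured through *Wdr43*, *Wdr75* and *Heatr1*, which are also needed for transcription by RNA polymerase I, and all 3 passed. Of its genes outside the 41, *Utp4* passed (1.39, adjusted p 0.00223), while *Utp15* (0.71, adjusted p 0.064) and *Nol11* (0.58, adjusted p 0.0567) did not. *Wdr43* (probe at mm9, chr17:72007156-72007215, plus strand) had the smallest adjusted p of the 41 genes. It read 11.86, 11.73 and 11.73 in the esophagus and 10.62, 10.34 and 10.79 in the stomach. The 3 esophagus arrays were nearly level and well clear of the stomach arrays, with a difference of 1.19 ± 0.16 (SE), or 2.28-fold (adjusted p 0.00251). Its second probe was not level in the esophagus, with 11.99, 11.53 and 11.00 against 10.50, 10.46 and 10.99 in the stomach. It gave 0.86 (adjusted p 0.0918), and only 0.01 within mouse 4. *Heatr1* read 12.42, 12.23 and 12.08 against 11.26, 10.98 and 11.42, a difference of 1.02 (adjusted p 0.00728). *Wdr75* differed by 0.99 (adjusted p 0.0179).

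The late steps of the small subunit, which take place on the way to and in the cytoplasm, held 4 further genes past the test. *Nob1*, the endonuclease that makes the final cut of the small subunit RNA, differed by 0.74 (adjusted p 0.0153, and 0.0512 with the mouse as a block). *Pno1*, its partner, differed by 1.03 (adjusted p 0.0395). *Bysl*, which leaves the particle late in its maturation, differed by 1.08 (adjusted p 0.0177), and *Ltv1*, needed for export of the particle, by 0.82 (adjusted p 0.0332). *Tsr1*, another factor bound to the late particle, had 0.51 and did not pass (adjusted p 0.0939), nor did its second probe with 0.68 (adjusted p 0.0523). *Nop14*, a part of the processome, completed the 8 with 0.95 (adjusted p 0.0318).

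The U3 snoRNP guides the first cuts, and of the genes for proteins that work with it *Rrp9*, *Imp3* and *Imp4* did not pass. *Mphosph10*, the partner of *Imp3* and *Imp4* and a gene outside the 41, passed with 1.02 (adjusted p 0.0146, named after its value was seen). Of the listed genes for proteins that U3 shares with other box C/D particles, *Nop56* and *Nop58* passed. *Fbl* did not (0.39, adjusted p 0.204). *Rrp9* differed by 1.0 with a wide interval (0.35 to 1.65, adjusted p 0.06). *Imp3* differed by 0.26 (-0.10 to 0.62, adjusted p 0.382). *Imp4*, which had the largest adjusted p of the small subunit genes, read 11.47, 12.29 and 12.90 in the esophagus and 11.87, 11.73 and 11.94 in the stomach. Its lowest and its highest value were both in the esophagus, with the difference at 0.37 (-0.39 to 1.13, adjusted p 0.577) and at 0.03 on the second probe (adjusted p 0.961). The helicase *Ddx10* differed by 0.84 (adjusted p 0.0809), the scaffold *Utp20* by 0.61 (adjusted p 0.0689), the export factor *Rrp12* by 0.46 (adjusted p 0.334) and the processome protein *Utp3* by 0.24 (adjusted p 0.488).

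Large subunit assembly had 13 genes, of which 4 passed as higher in the esophagus, and 2 of the remaining 9 had a negative difference. The nucleolar GTPase nucleostemin, *Gnl3* (probe at mm9, chr14:31826877-31826936, minus strand), showed the widest gap of the 41 genes, with 11.27, 10.59 and 10.61 in the esophagus and 9.17, 9.36 and 9.55 in the stomach. Esophagus and stomach did not overlap, and the difference was 2.10 in mouse 1, 1.23 in mouse 2 and 1.06 in mouse 4. On average it was 1.46 ± 0.22 (SE), or 2.75-fold, with an adjusted p of 0.00411. *Rrs1*, which helps to bring the 5S RNA into the particle, read 12.30, 12.03 and 11.77 against 10.58, 10.52 and 11.23, without overlap, a difference of 1.26 (adjusted p 0.0114). *Nop2*, a methyltransferase of the large subunit RNA and the gene with the upstream E-box printed above, differed by 0.93 (adjusted p 0.0192). *Gnl2*, a GTPase of the same family as *Gnl3*, differed by 0.56 with an adjusted p of 0.045 that became 0.0963 with the mouse as a block. It passed in 3 of the 17 alternatives and lost the call whichever array was left out. The second probe of *Gnl2* did not stand above background on the 6 arrays.

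The PeBoW complex, made of *Pes1*, *Bop1* and *Wdr12* and needed for processing of the large subunit RNA, had no gene past the test. *Wdr12* differed by 0.65 (adjusted p 0.0623) and by 0.62 at its other probe (adjusted p 0.284). *Bop1* differed by 0.56 (adjusted p 0.295). *Pes1* differed by 0.44 (95% confidence interval -0.31 to 1.19, adjusted p 0.494). It read 8.03, 8.25 and 9.34 in the esophagus against 8.04, 8.03 and 8.24 in the stomach, with the esophagus array of mouse 4 far above the others. A further 4 factors of the large subunit differed by 0.35 to 0.69 and did not pass. These were the helicase *Ddx18* (0.69, adjusted p 0.0501), *Ebna1bp2* (0.52, adjusted p 0.0773), the stalk assembly factor *Mrto4* (0.44, adjusted p 0.15) and *Nop16* (0.35, adjusted p 0.306). The second probe of *Ddx18* gave 0.71 and passed narrowly, with an adjusted p that rounds to 0.05, while the 2 further probes of *Ebna1bp2* gave 0.06 and 0.31.

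*Rrp1b*, a nucleolar protein of the large subunit particle, had the largest adjusted p of this group. It read 9.21, 8.75 and 8.87 in the esophagus and 9.01, 9.37 and 9.04 in the stomach, with overlap, for a difference of -0.20 (-0.62 to 0.23, adjusted p 0.604). The helicase *Ddx56* read 10.36, 10.26 and 10.43 against 10.45, 10.68 and 10.60. It was the one gene with every stomach array above every esophagus array, although by a small step, with a difference of -0.22 (-0.55 to 0.11, adjusted p 0.418).

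Other genes of the same pathway, outside the 41, were taken from 4 lists. Of 32 further small subunit factors, limma called 13 for the esophagus and 2 for the stomach (19 and 2 at an unadjusted p under 0.05). Of 37 further large subunit factors, it called 16 for the esophagus and 0 for the stomach (24 and 1 at an unadjusted p under 0.05). Factors of RNA polymerase I gave 6 and 0 of 16 (12 and 0 unadjusted), with all 16 differences positive. The RNA exosome, which trims precursor RNA, gave 4 and 1 of 12 (7 and 1 unadjusted). Together these were 39 genes for the esophagus and 3 for the stomach out of 97, with a median difference of 0.59. That is 40.2% and 3.09%, against 12.8% and 13.9% of the 18489 background genes. At an unadjusted p under 0.05 the 97 gave 62 and 4, and the background genes 4380 and 3973. Examples besides *Utp4* were the small subunit methyltransferase *Dimt1* (1.19, adjusted p 0.00157), *Nifk* (1.0, adjusted p 0.00261), *Urb1* (1.37, adjusted p 0.00285), the polymerase I subunit genes *Cd3eap* (1.13, adjusted p 0.00691) and *Twistnb* (0.92, adjusted p 0.00657) and the exosome subunit *Exosc1* (1.12, adjusted p 0.00274). The 3 genes higher in the stomach were *Utp6* (-0.70, adjusted p 0.0376), *Utp11* (-0.68, adjusted p 0.0378) and *Exosc2* (-0.58, adjusted p 0.0488), named after their values were seen. Without the stomach array of mouse 1 the counts of 39 and 3 became 16 and 0, and without that of mouse 2 they became 17 and 0.

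**Figure D4:**
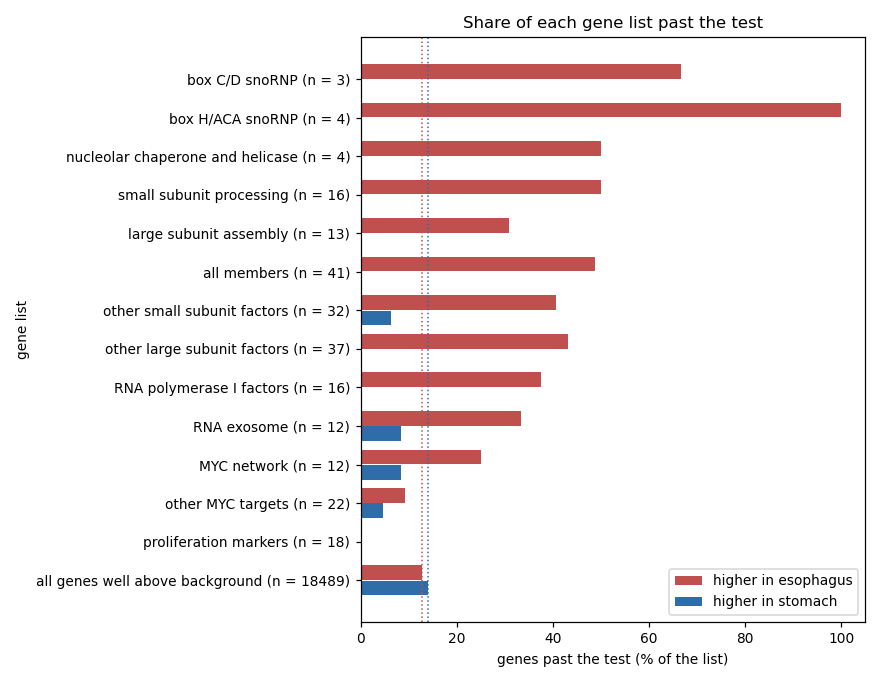
Share of each gene list (in %, bars starting at 0) past the test as higher in the esophagus (red) or in the stomach (blue), with the number of genes of the list in brackets. Dotted lines mark the shares over the 18489 genes well above background, 12.8% and 13.9%.

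The MYC network holds the partners and antagonists of MYC, and it was not uniform. Of 12 genes, 3 passed for the esophagus and 1 for the stomach (25% and 8.33%, against 12.8% and 13.9% of the 18489 background genes). *Mycl*, a relative of *Myc*, read 8.87, 9.30 and 9.09 in the esophagus and 7.59, 7.04 and 7.23 in the stomach, a difference of 1.80 (adjusted p 0.000686) without overlap. *Max*, the obligate partner, differed by 1.08 (adjusted p 0.00242), and *Mlx*, the partner of the related MONDO factors, by 0.73 (adjusted p 0.0395). The other relative, *Mycn*, went the opposite way with -2.26 (adjusted p 0.0176), where 1 of 3 esophagus arrays and all 3 stomach arrays were well above background. Among 22 other MYC targets outside ribosome assembly, 2 passed for the esophagus and 1 for the stomach. These shares of 9.09% and 4.55% were below the background shares of 12.8% and 13.9%. The initiation factors *Eif4e* (0.93, adjusted p 0.0373) and *Eif2s1* (0.76, adjusted p 0.0395) were the former, and the cell cycle gene *Ccnd2* (-2.36, adjusted p 0.00185) the latter. At an unadjusted p under 0.05 in limma, 9 of these 22 targets passed for the esophagus and 2 for the stomach, against 4380 and 3973 of the 18489 background genes. Their median difference was 0.43, with 16 positive and 6 negative.

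Markers of proliferation did not pass the test in either direction, with 0 of 18 genes called by limma. At an unadjusted p under 0.05, 3 of them passed for the esophagus and 0 for the stomach. Of the 18489 background genes, 4380 and 3973 did so. *Mcm2*, a part of the replicative helicase, had the smallest adjusted p of this list with 0.57 (adjusted p 0.102), followed by *Mcm4* with 0.63 (adjusted p 0.108) and *Pcna* with 0.45 (adjusted p 0.152). The summed intensity of the list varied within the esophagus from 94300 in mouse 1 to 149000 in mouse 2 and 219000 in mouse 4, and in the stomach from 118000 to 142000. The median level of these markers against their own mean over the arrays was -0.51, 0.19 and 0.74 in the esophagus of mice 1, 2 and 4, and -0.32, -0.28 and 0.09 in the stomach. The same median over the 40 ribosome biogenesis genes was 0.41, 0.22 and 0.44 in the esophagus and -0.40, -0.44 and -0.18 in the stomach, although single genes such as *Imp4*, *Bop1* and *Pes1* were lowest in mouse 1 and highest in mouse 4 within the esophagus, as the marker median was. The part of proliferation, of organoid age and of the culture medium in these differences was not tested.

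**Figure D5:**
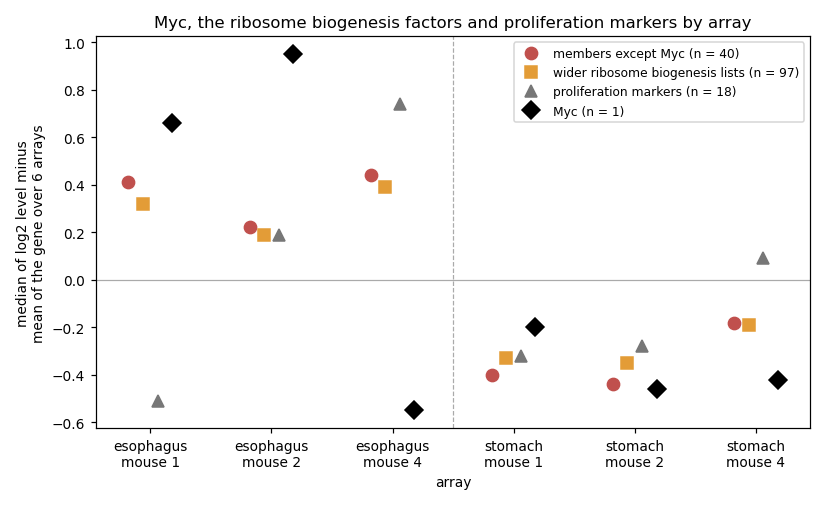
For each array, the median over a gene list of the log2 level minus the mean of each gene over the 6 arrays, with *Myc* as a single gene. The 40 members and the 97 wider genes are above 0 on the 3 esophagus arrays and below 0 on the stomach arrays, while proliferation markers range from -0.51 to 0.74 within the esophagus and *Myc* falls to -0.55 on the esophagus array of mouse 4.

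The E-box was set against the calls. Of the 18 genes higher in the esophagus with a promoter in the table, 4 (22.2%) held CACGTG, namely *Wdr43*, *Nop2*, *Ltv1* and *Pno1*. Of the 21 genes that did not pass, 16 had a promoter in the table. The E-box stood in 4 of these 16 (25%), namely *Imp4*, *Pes1*, *Tsr1* and *Utp20*. In the 80 genes of the wider lists with a promoter in the table the share was 16.2%.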

How the data were processed

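RNA of 3 esophageal and 3 stomach organoid samples was hybridised to single-color Agilent mouse arrays. Per the methods and the file headers, the authors read spot intensities with Feature Extraction 11.5.1.1, and the deposited scanner intensity values are not normalized between arrays. The deposited log2 values were background corrected and quantile normalized by the authors. They were used here, with 2029 empty cells at outlier-marked spots, and each of 6 columns was nearest to its own scanner file. In R 4.3.3 with limma 3.58.1, spots of a probe were averaged, lmFit and eBayes compared the tissues over 6 arrays without a block, and p-values were adjusted by Benjamini-Hochberg. The fit was tested on simulated data, but no result of that test is given here. Folds are on this offset scale, which understates changes of dim probes. The number of arrays limits the precision.

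The members and lists were chosen with earlier results of these data known. Values on every array are given for Myc and, per role group, for the 2 genes with the smallest adjusted p and the 1 with the largest (groups of 3 or 4, all). Of each other list, up to 3 genes with the smallest adjusted p are named by rule. Values of Pes1, Ddx56 and Mycl on every array, and the other genes named outside the 41 (Mlx, Mphosph10, Utp15, Nol11, Utp6, Utp11, Exosc2 and the marker genes of cell types), were added after their values were seen. Groups come from the labels. The numbers pair the samples by mouse, and deviations from the tissue means correlated with r = 0.042, 0.0226 and -0.00178 within mice 1, 2 and 4, against -0.0912 to 0.0399 between mice. Coordinates of probes are those of the files (mm9). Alternatives were normexp on mean intensities with offsets of 16 and 50, background-subtracted intensities with 75th percentile scaling (both choices changed at once), outlier-marked spots kept, probes averaged, a filter on dim probes, eBayes with a trend and robust variances, a block for mouse or for slide, both fold thresholds of 1.5, and each array left out.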

Additional observations from a re-analysis of the deposited data

How the results depend on the processing

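No difference of the 41 genes changed sign under the 17 alternatives, but not all of these could change it. The filter on dim probes, the trend with robust variances, the mouse block and the fold thresholds leave the difference of these genes as it is. The slide block is the same fit as leaving out the esophagus array of mouse 4, so that fit is counted again among the 17. Of 680 values of the 40 ribosome biogenesis genes under them, 579 kept their side of the threshold, 81 lost and 20 gained the call. *Dkc1*, *Ddx21*, *Wdr43*, *Heatr1* and *Gnl3* passed in all 17, and 12 genes passed in none. The count of 20 genes higher in the esophagus became 11 with background-subtracted intensities scaled to the 75th percentile, a setting that changed background correction and scaling together, and 13 with the slide as a block, and 6 to 22 when each array was left out. It was 0 in the stomach under every alternative. The median difference of 0.71 became 0.92 with these scaled background-subtracted intensities, a setting that also moved the median of all genes well above background from 0.06 to 0.17, and 0.60 to 0.79 with arrays left out. *Myc* became 1.16 (adjusted p 0.00681) with the slide as a block, the same as leaving out the esophagus array of mouse 4, and ranged from 0.42 to 1.16 with arrays left out. Over all 17 its adjusted p was 0.00681 to 0.594. The 6770 probes called became 4091 to 7415 with arrays left out, and 10096 at an unadjusted p under 0.05 and 1.5-fold. With the mouse as replicate block, 17 genes were higher in the esophagus. *Gar1*, *Nob1* and *Gnl2* lost the call, and no other gene of the 41 changed its call under the block. The 39 wider genes higher in the esophagus became 16 with the scaled background-subtracted intensities. The causes were not tested. The sample numbers name mice, and each mouse gave 1 esophagus and 1 stomach sample. Nothing says that any of these samples came from more than 1 culture, so p-values measure the spread between these mice and arrays. The 41 genes were well above background on all arrays. *Rrp12* (6.21 to 7.27) and *Utp20* (6.86 to 7.77) were dim, and their differences may be understated on the offset scale.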
